A study of Populus trichocarpa with 18 samples.

Results

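The comparison described here asks whether the step from Region 1 to Region 2 of the developing xylem differs between tension wood and normal wood of Populus trichocarpa, the black cottonwood. It rests on the Region 1 and Region 2 libraries, 12 of the 18 of the study, with 3 biological replicates of each region in each wood. The quantity is a difference of differences, namely Region 2 minus Region 1 in tension wood, minus the same step in normal wood. A positive log2 value, called the interaction below, means that Region 2 stood higher against Region 1 in tension wood than it did in normal wood. Of 11294 genes listed in either of the deposited count tables, 4347 are in both and could enter, and 1138 of these had enough counts to be tested.

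All trees were wild type, grown from cuttings to an age of 5 to 12 months. Per the labels, stems were bent to 90° and held for 21 days for the spatial work, and the sources used here do not say if the normal wood was taken from trees left upright. Bands of xylem were cut by laser from cross-sections 16 µm thick and pooled to about 1600000 µm2 per replicate and region. The position of Region 1 and Region 2 relative to the cambium is not stated either. Libraries tag transcripts near their poly(A) end, and values are CPM, counts scaled to a common library total of 1000000, unless stated otherwise. A lower level in a dissected band can mean fewer cells of a type or less RNA per cell, and these cannot be told apart here.

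Wood forms from the cambium, whose xylem daughter cells first expand and then lay down a thick secondary wall of cellulose, xylan and lignin before most of them die. Cellulose synthase complexes in the cell membrane spin the cellulose, glycosyltransferases in the Golgi build xylan, and enzymes of the monolignol pathway make the lignin precursors. In poplar, the upper side of a leaning stem forms tension wood, whose fibres add an inner layer that is rich in cellulose and poor in lignin. Successive bands across the xylem therefore sample cells at different stages of wall building. The deposited identifiers could not be tied to names: 0 of the 11294 matched the reference gene table. Single genes are therefore given by identifier alone, and gene groups rest on identifiers recalled from published poplar gene models, whose membership was not checked against an annotation.

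The libraries were shallow and the depth moved with wood and with region. In normal wood the totals of Region 1 were 13504, 11442 and 11275 counts in replicates 1 to 3, and those of Region 2 were 20080, 8852 and 7427. In tension wood the totals were 88523, 89358 and 65215 counts in Region 1 and 39139, 56458 and 39391 in Region 2. Region 2 was thus shallower than Region 1 in every tension replicate, at 0.442, 0.632 and 0.604 of its total, and in normal replicates 2 and 3, while normal replicate 1 went the other way at 1.49. The part of these depths in the results was not tested beyond the thinned libraries described further on.

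**Figure D1:**
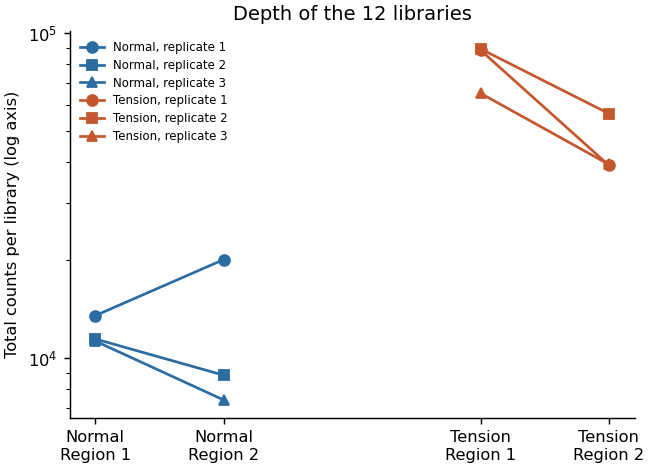
Total counts of each library on a log axis, with a line joining Region 1 and Region 2 of 1 replicate (circles, squares and triangles are replicates 1, 2 and 3; blue is normal and orange is tension wood). Tension libraries hold 39139 to 89358 counts and normal libraries 7427 to 20080.

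Among the tested genes, the profiles of the woods were also unlike each other. Across the 1138 tested genes the Spearman correlation of levels had a median of 0.826 between normal libraries and 0.928 between tension libraries, but -0.38 between a normal and a tension library (range -0.42 to -0.35). This is a description across genes that share each library's depth, in genes kept because they were high enough in at least 1 group. Genes kept through 1 wood only can by themselves lower the correlation between the woods. Its value in genes well counted in both woods was not computed, so the size of that effect was not tested. Few genes were well counted on both sides. At least 10 counts in each wood, summed over its 6 libraries, were found for 543 tested genes (47.7%), at least 30 for 275 and at least 100 for 52. Under 10 counts were found in normal wood for 329 tested genes and in tension wood for 266. Each wood has its own table, so wood cannot be told apart from separate preparation, sequencing or counting. A factor that scales a gene alike in both regions of a replicate drops out of the interaction. The interaction takes an identifier to mean the same gene in both tables. This was not checked, and a mismatch of identifiers between the tables would not drop out, since steps of different genes would then be subtracted.

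No gene passed the test for a difference between woods in the Region 2 to Region 1 step. By edgeR's quasi-likelihood test with Benjamini-Hochberg adjustment, 0 of 1138 genes (0%) had an adjusted p under 0.05, and the smallest adjusted p was 0.662. An unadjusted p under 0.05 was reached by 57 genes (5.01%), of which 28 were positive (2.46%) and 29 negative (2.55%). DESeq2 also called 0 genes, with 26 at an unadjusted p under 0.05. The median interaction over all tested genes was 0.04 on the log2 scale, with 590 genes positive and 548 negative, or 0.099 with the 207 genes that had a group at 0 counts placed at a floor of 3 counts over that group. Scaling by TMM factors fitted within each wood, the second scaling, gave 0 of 1091 genes and a median of 0.0016. TMM fitted over all 12 libraries, across the unlike profiles, moved the median to -0.49 and still called 0 of 1328 genes.

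Few steps within either wood passed the test at these depths. In normal wood 0 of 1138 genes (0%) passed for Region 2 against Region 1 in the same edgeR fit, 74 genes (6.5%) had an unadjusted p under 0.05, and DESeq2 called 0. In tension wood 2 genes (0.176%) passed, 1 higher and 1 lower in Region 2 (0.0879% each), and 41 (3.6%) had an unadjusted p under 0.05. A step of the same sign in 3 of 3 replicates was found for 277 genes (24.3%) in normal and 314 (27.6%) in tension wood. Signs also agree by chance in part of the genes that have no step, so these shares alone do not show steps. In genes with very few counts, the library totals and the 0.5 added to each count set the sign. By chi-square per degree of freedom, which also depends on depth, libraries of 1 group were about as far apart as the regions of 1 replicate. Its median was 2.41 between replicates and 2.42 between regions in normal wood, and 2.07 against 1.98 in tension wood. The tension replicate pairs lay at 2.31 to 2.40 in Region 1 and at 1.71 to 1.83 in the shallower Region 2. Pairs of tension regions lay between these, at 1.95 to 2.15. In normal wood the replicate pairs lay at 2.49 to 2.58 in Region 1 and at 2.30 to 2.34 in Region 2. Pairs of normal regions lay at 2.22 to 2.56. The medians are thus not compared at equal depth in either wood.

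No pattern of change shared between replicates could be seen across genes. The Spearman correlation of the log2 ratio of Region 2 to Region 1 between replicates, across the 1138 genes, had a median of -0.022 within normal wood (3 pairs, -0.069 to 0.035) and 0.013 within tension wood (3 pairs, 0.000662 to 0.053). Between a normal and a tension replicate it had a median of 0.0095 (9 pairs, -0.0075 to 0.084). In the 275 genes with at least 30 counts in each wood the medians were 0.000414, -0.028 and -0.015 in the same order. The fitted steps of the woods had a Spearman correlation of 0.053 over all tested genes and 0.026 over those 275. These values are across genes within the same libraries, and genes are not independent replicates. Each ratio also carries the counting error of 2 shallow libraries, which brings such correlations toward 0. Values near 0 therefore cannot show that a shared pattern is absent.

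**Figure D2:**
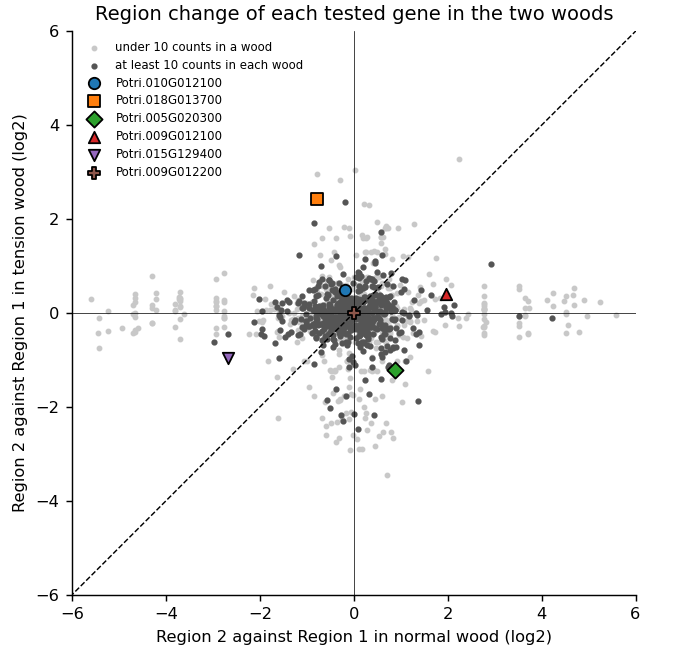
Fitted log2 step from Region 1 to Region 2 of each tested gene in normal wood (x axis) and tension wood (y axis); the dashed line marks equal steps, and distance from it is the interaction. Genes with under 10 counts in a wood (light grey) lie along the axis of the shallower side, genes with at least 10 in each (dark) lie around the origin, and the 6 genes shown by colour are described in the text.

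The width of the intervals shows what these libraries could resolve. A 95% interval of the interaction could be given for 931 genes with counts in all 4 groups, and its median half-width was 2.20 log2 units. The half-width fell with the counts of the shallower wood, from a median of 3.54 in genes with under 10 counts in a wood to 1.99 at 10 to 29 counts, 1.29 at 30 to 99 and 0.757 at 100 or more. The whole interval lay within 1 log2 unit of 0, that is within a 2-fold difference either way, for 21 genes, and 19 of these had at least 100 counts in each wood. For the remaining genes a 2-fold difference between the woods was not excluded in at least 1 direction. These intervals are per gene and not adjusted for their number. The edgeR fit gave no gene a spread of its own (prior degrees of freedom infinite), so a gene that varied more between replicates than the fit assumed has an interval that is too narrow. The common dispersion estimated before that fit amounts to a biological coefficient of variation of 18.2%. The intervals do not use that value but the spread of the quasi-likelihood fit.

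**Figure D3:**
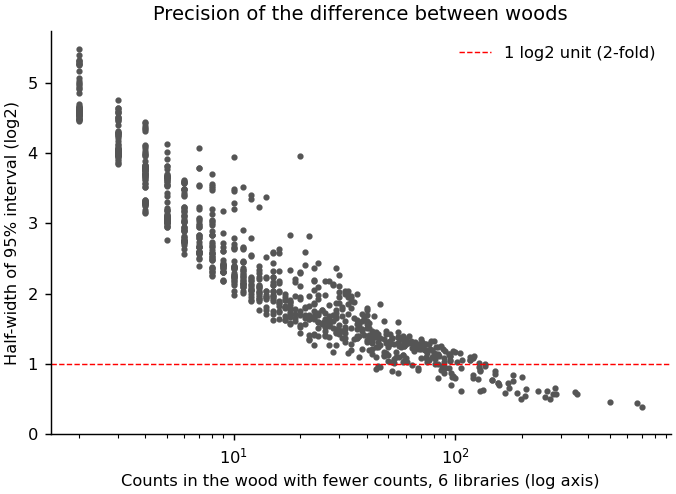
Half-width of the 95% interval of the interaction (log2) against the counts of the gene in the wood where it had fewer (log axis), 1 point per gene with counts in all 4 groups. The points cross the dashed line at 1 log2 unit near 100 counts.

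Among the 52 best counted genes, 8 (15.4%) had an unadjusted p under 0.05 in edgeR, against 5.01% of all tested genes. In limma on the 6 replicate ratios, a test added after seeing the data that estimates the spread from those ratios, 1 of the 52 did (1.92%). The median interaction of the 52 genes was 0.12, with 32 positive and 20 negative, and the median distance from 0 was 0.30. The 12 genes highest in both woods, chosen by their level and not by their step, had interactions between -0.67 and 0.68, 6 of them positive. Their half-widths ran from 0.38 to 0.62, and 8 of the 12 intervals lay within 1 log2 unit of 0. Of the 12, 4 had an unadjusted p under 0.05, against 5.01% of all tested genes, and in 4 the replicate ratios of the woods did not overlap, against 11.9%. The smallest adjusted p among the 12 was 0.662 in edgeR.

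One of these 12 genes, Potri.009G012200.v4.1, shows how even the step could be. Its levels in tension wood were 24536, 19439 and 21007 CPM in Region 1 and 25959, 20741 and 18253 CPM in Region 2 of replicates 1 to 3. In normal wood they were 3851, 1136 and 2129 CPM in Region 1 and 4333, 904 and 1885 CPM in Region 2. The tension libraries all lay far above the normal ones in both regions, and replicate 1 was the highest in both regions of each wood. Its interaction was -0.02 (SE 0.25, 95% interval -0.51 to 0.48; adjusted p = 1 in edgeR), and its sign depended on the libraries used.

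The smallest unadjusted p of the interaction belonged to Potri.010G012100.v4.1, which is also 1 of those 12 genes and 1 of the 2 called in tension wood. In tension wood it stood at 10291, 9926 and 10089.7 CPM in Region 1 and at 11906, 13727 and 17440.5 CPM in Region 2 of replicates 1 to 3. In normal wood it stood at 10367, 12585 and 6297 CPM in Region 1 and at 11703, 7908 and 5655 CPM in Region 2. Region 2 was the higher side in 3 of 3 tension replicates, and in normal wood in replicate 1 only. The replicate ratios were 0.21, 0.47 and 0.79 on the log2 scale in tension wood and 0.17, -0.67 and -0.15 in normal wood, so the woods did not overlap, by a narrow gap between 0.17 and 0.21. The fitted interaction was 0.68 (SE 0.20, 95% interval 0.29 to 1.06; unadjusted p = 0.000581, adjusted p = 0.662 in edgeR). Under the alternatives it stayed positive, from 0.15 with TMM over 12 libraries to 0.95 without normal replicate 1.

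Within tension wood alone, the step of Potri.010G012100.v4.1 was 0.49 (SE 0.12, adjusted p = 0.032 in edgeR). This call ended with TMM within each wood (log2 0.44, adjusted p = 0.258), without any 1 of the 3 tension replicates (adjusted p = 0.111 to 1) and in DESeq2 (adjusted p = 0.934), and TMM over 12 libraries turned its sign (-0.051). The call also ended with a minimum count of 3, without the replicate block and after thinning (adjusted p = 0.0502 to 0.79 in edgeR). It held in 7 of 16 alternatives.

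The other gene called in tension wood, Potri.015G129400.v4.1, was lower in Region 2. It stood at 2959.7, 3615 and 1809 CPM in Region 1 and at 1303, 1771 and 1193 CPM in Region 2 of tension replicates 1 to 3. Every tension replicate was lower in Region 2, and no Region 2 library reached the lowest Region 1 library. Its step in tension wood was -0.95 (SE 0.21, adjusted p = 0.00771 in edgeR). The call held in 8 of 16 alternatives. It ended without any 1 of the tension replicates (adjusted p = 0.554 to 1 in edgeR) and in DESeq2 (adjusted p = 0.934). It also ended with a minimum count of 3, with no filter, without the replicate block and after thinning (adjusted p = 0.0502 to 0.842 in edgeR). In normal wood the gene had 5, 1 and 8 counts in Region 1 and 1, 1 and 0 counts in Region 2, too few to place its step. The interaction was 1.72 with an interval from -0.53 to 4.11 (adjusted p = 0.879 in edgeR), so whether its step differed between the woods was not detectable at this depth.

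On the negative side, the smallest unadjusted p belonged to Potri.005G020300.v4.1. Its levels in normal wood were 1629, 1748 and 1330.4 CPM in Region 1 and 1643, 6665 and 1750.4 CPM in Region 2 of replicates 1 to 3. In tension wood they were 124, 213 and 184 CPM in Region 1 and 76.6, 70.8 and 76.2 CPM in Region 2. The tension replicates were all lower in Region 2, on 3 to 19 counts per library, while the normal step came mainly from replicate 2, whose Region 2 library lay far above the other 5. The interaction was -2.08 (SE 0.70, 95% interval -3.49 to -0.76; unadjusted p = 0.00141, adjusted p = 0.794 in edgeR), -1.38 without normal replicate 2 and -0.83 in libraries thinned to equal depth.

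The next was Potri.009G012100.v4.1, where Region 2 was the higher side in all 6 replicates. Its levels were 148, 262 and 532 CPM in Region 1 and 1295, 791 and 1346 CPM in Region 2 of normal wood, on 2 to 26 counts per library. In tension wood they were 1469, 1455 and 1487 CPM in Region 1 and 1942, 1877.5 and 2006 CPM in Region 2. Regions did not overlap in either wood, and the tension replicates lay close together. The replicate ratios were 2.83, 1.47 and 1.29 in normal and 0.41, 0.37 and 0.43 in tension wood, so the steps differed in size and not in sign. The interaction was -1.56 (SE 0.59, 95% interval -2.73 to -0.41; unadjusted p = 0.00529, adjusted p = 0.794 in edgeR), and -1.03 without normal replicate 1. Its own steps were not called, at 1.96 in normal (SE 0.55, adjusted p = 0.125) and 0.40 in tension wood (SE 0.22, adjusted p = 0.995 in edgeR).

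The remaining positive example, Potri.018G013700.v4.1, rests on very few counts in tension wood. It had 1, 1 and 1 counts in Region 1 and 3, 4 and 4 counts in Region 2 of tension wood. In normal wood it stood at 1777, 437 and 709.5 CPM in Region 1 and 349, 678 and 808 CPM in Region 2. Normal replicate 1 was lower in Region 2 and the other 2 were higher. The interaction was 3.22 with an interval from 0.99 to 6.02 (SE 1.28, unadjusted p = 0.00334, adjusted p = 0.794 in edgeR), and 2.06 without normal replicate 1.

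The 5 smallest unadjusted p-values in each direction covered fitted interactions from 0.68 to 3.75 and from -4.33 to -1.56, with adjusted p from 0.662 to 0.794 in edgeR. Without regard to p, the 3 tension ratios lay all above the 3 normal ratios in 69 genes (6.06%) and all below them in 66 (5.8%), together 11.9% of the 1138. Ratios also separate by chance in part of the genes whose steps are alike, so these shares alone show no difference between the woods. In genes with very few counts in a wood, the library totals and the 0.5 added to each count set its ratios.

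**Figure D4:**
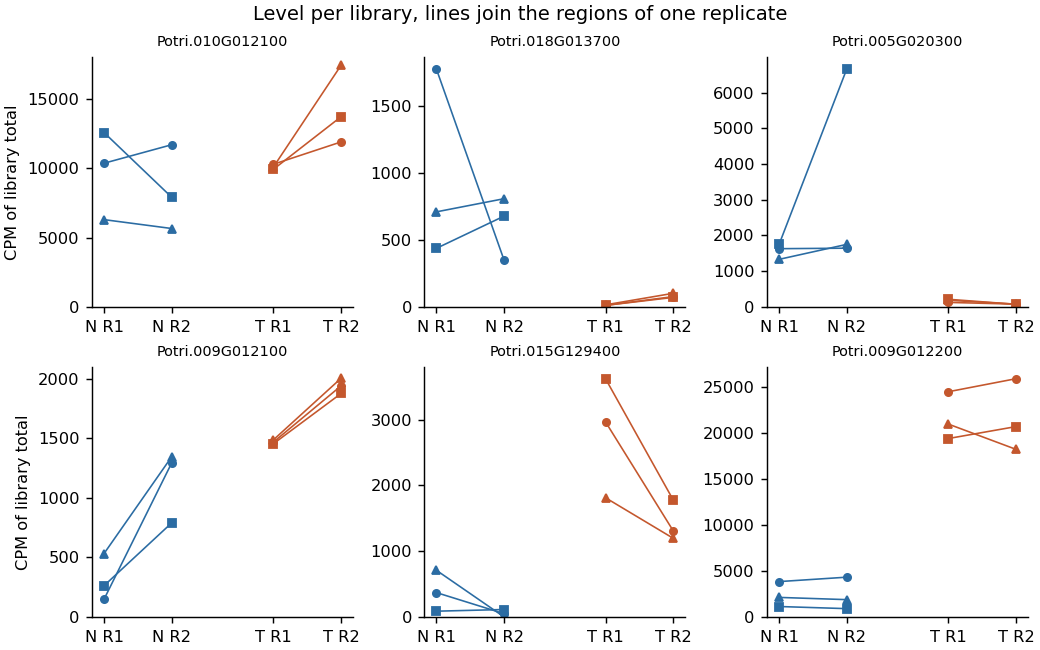
CPM of the 6 genes named in the text in each library, with N for normal (blue), T for tension (orange), R1 and R2 for the regions, and a line joining the regions of 1 replicate (circles, squares and triangles are replicates 1, 2 and 3). Potri.010G012100 is higher in Region 2 in 3 of 3 tension replicates, and the Region 2 value of 6665 CPM of Potri.005G020300 stands alone among its normal libraries.

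Gene groups of the fibre wall were followed through 50 recalled identifiers, of which 46 occur in either table, 42 in both and 36 were tested. They were chosen with earlier results of these data known, so their values are descriptions. None of the 36 passed the edgeR test for the interaction, against 0% of all tested genes, and 4 of the 36 had an unadjusted p under 0.05, against 5.01% of all tested genes. Shares of counts below are over every identifier of a list that its table holds, tested or not. Markers of cambium, phloem and leaf tissue were not analysed here, for want of annotated identifiers.

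Secondary wall cellulose synthases, which spin the cellulose of the thickened wall, took a smaller share of counts in Region 2 than in Region 1 in all 6 replicates. The share went from 0.239% ± 0.025 in Region 1 to 0.147% ± 0.050 in Region 2 of normal wood and from 1.13% ± 0.073 to 1.03% ± 0.057 in tension wood (SD, n = 3). The log2 ratios of Region 2 to Region 1 were -1.03, -0.09 and -1.04 in normal and -0.12, -0.13 and -0.14 in tension replicates. Tension replicates lay close together, and normal replicate 2 lay on the other side of them from normal replicates 1 and 3. The difference between the woods was 0.59, or 0.90 without normal replicate 2. Of 5 tested members 4 had a positive interaction, with a median of 0.67, or 0.42 with the 1 member that had a group at 0 counts placed at the floor. Over all tested genes these medians were 0.04 and 0.099. Single normal libraries held 8 to 36 counts of this list.

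The monolignol list, for enzymes of lignin precursor synthesis, also took a smaller share in Region 2 in all 6 replicates, and this summed share fell by a like amount in both woods. The share went from 1.56% ± 0.21 to 1.33% ± 0.075 in normal and from 3.28% ± 0.11 to 2.85% ± 0.030 in tension wood (SD, n = 3). The mean log2 ratio was -0.22 ± 0.14 in normal and -0.21 ± 0.043 in tension wood (SD, n = 3), and the replicates of the woods overlapped. The difference between the woods was 0.019, and between -0.031 and 0.10 with 1 replicate left out. Its 16 tested members had a median interaction of 0.47, with 13 positive and 3 negative and a range from -0.70 to 1.43. Over all tested genes the median was 0.04, with 590 positive and 548 negative. The median step of the members was -0.48 in normal and -0.22 in tension wood. The median over members gives each gene 1 vote, whereas the share follows the genes with most counts.

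The list named for fasciclin-like arabinogalactan proteins, which sit at the cell surface and are linked to wall assembly, showed no common direction. Its share was 0.412% ± 0.131 in Region 1 and 0.494% ± 0.242 in Region 2 of normal wood, and 3.38% ± 0.31 and 3.57% ± 0.40 in tension wood (SD, n = 3). The ratio was above 0 in 4 of the 6 replicates, with means of 0.19 ± 0.26 in normal and 0.073 ± 0.073 in tension wood (SD, n = 3). Of 8 tested members 3 had a positive and 5 a negative interaction, with a median of -0.19, or -0.0033 with the 2 members that had a group at 0 counts at the floor (0.04 and 0.099 over all tested genes). This list holds Potri.009G012100.v4.1 and Potri.009G012200.v4.1, so the values of those identifiers are not apart from it.

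Sucrose synthases, which feed glucose units to cellulose synthesis, had 2 tested members. Their mean log2 ratio was -0.071 ± 0.047 in tension wood and -0.076 ± 0.85 in normal wood (SD, n = 3), where replicate 2 stood at -0.97 and replicate 3 at 0.74. The list for xylan synthesis, which builds the chief hemicellulose of poplar wood, holds 6 identifiers, of which 5 are in both tables and 4 were tested. The share of all 6 had a mean ratio of -0.39 ± 0.28 in tension and -0.15 ± 0.66 in normal wood (SD, n = 3), with 5 of 6 replicates below 0. The difference between the woods was -0.24, or -0.10 with shares taken over genes in both tables. For both lists the spread among normal replicates was larger than the difference between the woods. The 1 tested tubulin, a subunit of the microtubules that guide cellulose deposition, had an interaction of 0.071 (adjusted p = 1 in edgeR).

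**Figure D5:**
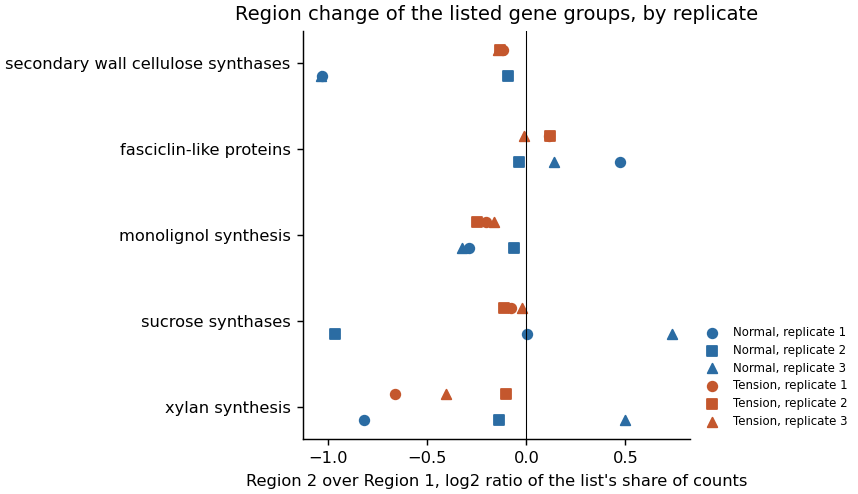
Log2 ratio of Region 2 to Region 1 of each list's share of counts, 1 point per replicate (circles, squares and triangles are replicates 1, 2 and 3; blue is normal and orange is tension wood; 0 means equal shares). Points of the cellulose synthase and monolignol lists lie below 0 in all 6 replicates, and normal replicates of the sucrose synthase list run from -0.97 to 0.74.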

How the data were processed

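Whole-number counts per gene and library were deposited in 1 table per wood. The tools named in the submitters' processing notes are STAR, featureCounts and UMI-tools. Their versions and settings, the genome build, and whether a count is a read or a molecule were not given in the sources used here. Identifiers end in v4.1. Every listed gene has at least 1 count in its table, and 0 columns were unused. No pair of libraries within a wood held identical counts or agreed within sampling noise.

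The edgeR 4.0.16 quasi-likelihood fit (R 4.3.3) held 6 blocks (wood and biological replicate) and a Region 2 term per wood. Counts were scaled by library totals, and genes listed in both tables were kept by filterByExpr at a minimum count of 10. DESeq2 1.42.0, limma 3.58.1, other scalings, filters, left-out replicates and libraries thinned to 7427 counts were alternatives. The scripts were tested on simulated data. Replicate log2 ratios used 0.5 added to each count and carry counting error beside the replicate spread.

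The block follows the labels. Deviations from group means of Region 1 and Region 2 of the same replicate correlated across genes at 0.036 to 0.069 in normal and -0.029 to 0.076 in tension wood. Nothing says replicates were separate trees, so p-values measure only the spread between these pools. Members and lists were chosen with earlier results of these data known. Named were the genes with the smallest interaction p in each direction, those called within a wood and the 12 highest in both woods; as no annotation was used here, at most 2 identifiers per direction and comparison are printed, plus Potri.009G012200.v4.1, singled out from the 12 after its values were seen.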

Additional observations from a re-analysis of the deposited data

How the results depend on the processing

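The count of genes called for the interaction was 0 in edgeR under each of the scalings, filters, thinning, the fit of all 18 libraries, each left-out replicate and without the replicate block (0 calls, smallest adjusted p = 0.672), and in DESeq2 and limma. The smallest adjusted p over these was 0.0946, without normal replicate 2. Calls of Region 2 against Region 1 in tension wood, 2 in the test as reported, were 1 with TMM within each wood, 7 with TMM over 12 libraries, 1 with no filter, and 0 with a minimum count of 3, without the replicate block, after thinning and in DESeq2. They ranged from 0 to 2 with a replicate left out, 0 in each case where it was a tension replicate. In normal wood they ranged from 0 to 1, with Potri.002G257900.v4.1 called without normal replicate 2 and Potri.004G193800.v4.1 without normal replicate 3, both named after their values were seen. The median interaction was -0.49 with TMM over 12 libraries and between -0.049 and 0.077 with a replicate left out. Non-overlapping genes numbered 135 of 1138 in the main set (11.9%). They were 80 of the 649 genes kept when at least 10 counts in each wood was the only filter, and 34 of the 265 tested after thinning. Those 649 are not the 543 given above, which also passed the main filter. The interaction of Potri.009G012200.v4.1 turned positive without normal replicate 1 (0.23) or tension replicate 3 (0.086), against -0.080 without normal replicate 2, and in DESeq2 (0.054) and in limma (0.087). The tension step of Potri.010G012100.v4.1 turned to -0.051 with TMM over 12 libraries. With 1 replicate left out, the difference between woods of the list shares ranged from 0.43 to 0.90 for cellulose synthases, -0.23 to 0.022 for fasciclin-like proteins, -0.44 to 0.41 for sucrose synthases, -0.57 to 0.086 for xylan and -0.15 to 0.20 for the tubulin, each extreme being a left-out normal replicate. Where the number of genes tested changed, the adjustment changed with it; otherwise the cause was not tested. The median half-width of the intervals was 2.55 to 2.67 without 1 normal replicate, over 1579 to 1607 genes tested, and 2.03 without 1 tension replicate, over 718 to 729 genes, so these are not over the same genes.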
